A study of Mus musculus with 12 samples.

Results

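Foxp3 and the 5 genes of the Ikaros family, Ikzf1 (Ikaros), Ikzf2 (Helios), Ikzf3 (Aiolos), Ikzf4 (Eos) and Ikzf5 (Pegasus), were followed through 12 one-colour Agilent whole-genome arrays of regulatory T cells (Treg). They were chosen by gene name, older aliases included, and make up 6 of the 21244 genes named on the arrays. All 6 were among the 13644 named genes that entered the fit, through 15 probes: 1 each for Foxp3, Ikzf1 and Ikzf5, 5 for Ikzf2, 4 for Ikzf3 and 3 for Ikzf4.

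The study compared Treg from MC38 colon carcinoma, grown under the skin for 2 weeks and pooled before sorting, with Treg from the spleens of mice without tumours. IL10- and IL10+ tumour Treg came from VERT-X C57BL/6 mice, in which EGFP reports Il10, and were taken from CD4 T cells as CD25+ CD120b+/low cells. Total tumour Treg and spleen Treg came from FoxP3-EGFP C57BL/6 mice and were taken from CD4 T cells by EGFP. Each of the 4 groups had 3 arrays, from 3 experiments per population; the ages of the mice and the structure of either reporter allele were not given in the sources used here. Between VERT-X and FoxP3-EGFP samples the reporter strain and the sort gate changed together and cannot be told apart, and total tumour against spleen also compares tumour-bearing with tumour-free mice. Slides were uneven too, with all spleen arrays on slide 4 and all IL10- arrays on slide 1. No VERT-X array shared a slide with a spleen array, and no IL10- array shared one with total tumour Treg. Slide therefore cannot be told apart from group in those comparisons.

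Foxp3 is the forkhead transcription factor that defines Treg, and loss of it abolishes the lineage. Ikaros family proteins are zinc-finger factors that bind DNA through an N-terminal group of fingers, pair with each other through a C-terminal one, and act largely through co-repressor complexes. Helios is found in most thymus-derived Treg, Eos binds Foxp3 and takes part in gene silencing by it, Ikaros and Aiolos are broad lymphoid factors best known from B and T cell development, and Pegasus is the most distant member.

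RefSeq promoter windows (GRCm38.p6, from 250 bases before to 50 bases after a transcript start) were on hand for 3 of the 6 members, Foxp3, Ikzf1 and Ikzf5; Ikzf2, Ikzf3 and Ikzf4 had none. Foxp3 and Ikzf1 had 2 windows each, of which the first by position is shown; the second of each, chrX:7580233-7580532 and chr11:11689927-11690226, held none of the 3 motifs marked here. They are shown because the largest difference below is at Foxp3 and because Ikzf1 and Ikzf5 were both lower in IL10+ and IL10- tumour Treg than in spleen. Capitals mark the TATA box letters TATAAA, the Ikaros core letters TGGGAA and the GC box letters GGGCGG, each searched on both strands; of these motifs, overlapping matches occurred only between GC boxes. Among all 32851 windows in the table, 13.6% held TATAAA, 25.6% held TGGGAA and 35.7% held GGGCGG.
Foxp3, chrX:7579426-7579725, plus strand: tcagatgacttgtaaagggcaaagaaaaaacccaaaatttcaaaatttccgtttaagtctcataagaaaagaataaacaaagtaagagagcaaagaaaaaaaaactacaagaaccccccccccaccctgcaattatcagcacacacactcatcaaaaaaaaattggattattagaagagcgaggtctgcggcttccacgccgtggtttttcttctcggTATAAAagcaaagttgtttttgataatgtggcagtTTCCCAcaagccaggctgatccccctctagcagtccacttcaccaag
Ikzf1, chr11:11685675-11685974, plus strand: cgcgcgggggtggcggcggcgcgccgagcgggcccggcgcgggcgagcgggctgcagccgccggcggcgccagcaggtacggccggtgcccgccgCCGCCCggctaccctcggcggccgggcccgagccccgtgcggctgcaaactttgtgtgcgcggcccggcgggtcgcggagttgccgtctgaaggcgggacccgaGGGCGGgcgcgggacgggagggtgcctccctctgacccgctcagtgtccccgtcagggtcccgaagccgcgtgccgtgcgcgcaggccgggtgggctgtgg
Ikzf5, chr7:131410429-131410728, minus strand: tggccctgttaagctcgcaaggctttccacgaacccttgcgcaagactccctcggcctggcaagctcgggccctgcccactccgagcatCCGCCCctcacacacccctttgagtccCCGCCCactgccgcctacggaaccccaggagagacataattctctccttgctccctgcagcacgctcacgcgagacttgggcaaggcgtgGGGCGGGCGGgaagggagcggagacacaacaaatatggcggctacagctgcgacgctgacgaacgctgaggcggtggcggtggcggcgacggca
The Foxp3 window shown held TATAAA at position 219 and TGGGAA, on the opposite strand, at position 254, counted from 1 at its 5′ end. The Ikzf1 window shown held GGGCGG at positions 96 and 200, and the Ikzf5 window held it at 90, 117, 207 and 211. These are matches of letters, not measured binding, and no array value bears on them.

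Levels are log2 of the processed spot signal minus the 75th percentile of the same array, so a level of 0 lies at that percentile; levels of different probes are not set against each other. Arrays had 42.2% to 65.4% of probes well above background, and their 75th percentile signal ran from 92.3 to 606. Differences were tested with limma over all 15559 features, with Benjamini-Hochberg adjustment in each of 6 comparisons and a call at an adjusted p under 0.05. T cell markers were well above background on every array (7 of 7, with a summed log2 level of 7.54 to 9.08), and none was called between total tumour and spleen. Against spleen, Cd3g was lower in IL10+ (-0.84 ± 0.22, adjusted p = 0.00937) and IL10- tumour Treg (-0.91 ± 0.22, adjusted p = 0.00647). Cd3d was lower in IL10- tumour Treg (-0.74 ± 0.28, adjusted p = 0.0473). Cd3e stood at 2.08 and 1.73 on IL10- and IL10+ replicate 1, against 4.8 to 5.87 on the other VERT-X arrays. The FoxP3-EGFP arrays lay between these, at 2.62 to 3.42. Fewer cells of a type and less RNA per cell cannot be told apart in these bulk samples.

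One library went against its label. The array labelled spleen replicate 2 was below both other spleen arrays for 19 of 19 measured genes known to be raised by Foxp3 in Treg, with a median difference of -2.95 from their mean, and above both for 10 of 10 known to be lowered by it, with a median difference of 2.53. Over all features, 4971 of 15559 were below both. The number above both was not counted over all features, so the counts above both have no such figure beside them. Il2ra, the high-affinity IL-2 receptor chain CD25, stood at -3.9 there against 0.72 and 1.27 on the other spleen arrays. Ctla4, a checkpoint receptor of Treg, stood at -0.89 against 3.12 and 3.29, and Dapl1, a gene lowered by Foxp3, at 5.93 against 2.22 and 2.15. The T cell markers were present on it, 7 of 7 being above both other spleen arrays, and fibroblast markers (8 of 8) and erythroid and platelet markers (6 of 6) were above both as well. Member differences from spleen and list counts are therefore given with and without this library. It was not the array with the lowest weight in the alternative fit with array weights. Its weight was 0.408, against 0.216 for IL10+ replicate 1 and 0.256 for IL10- replicate 1.

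**Figure D1:**
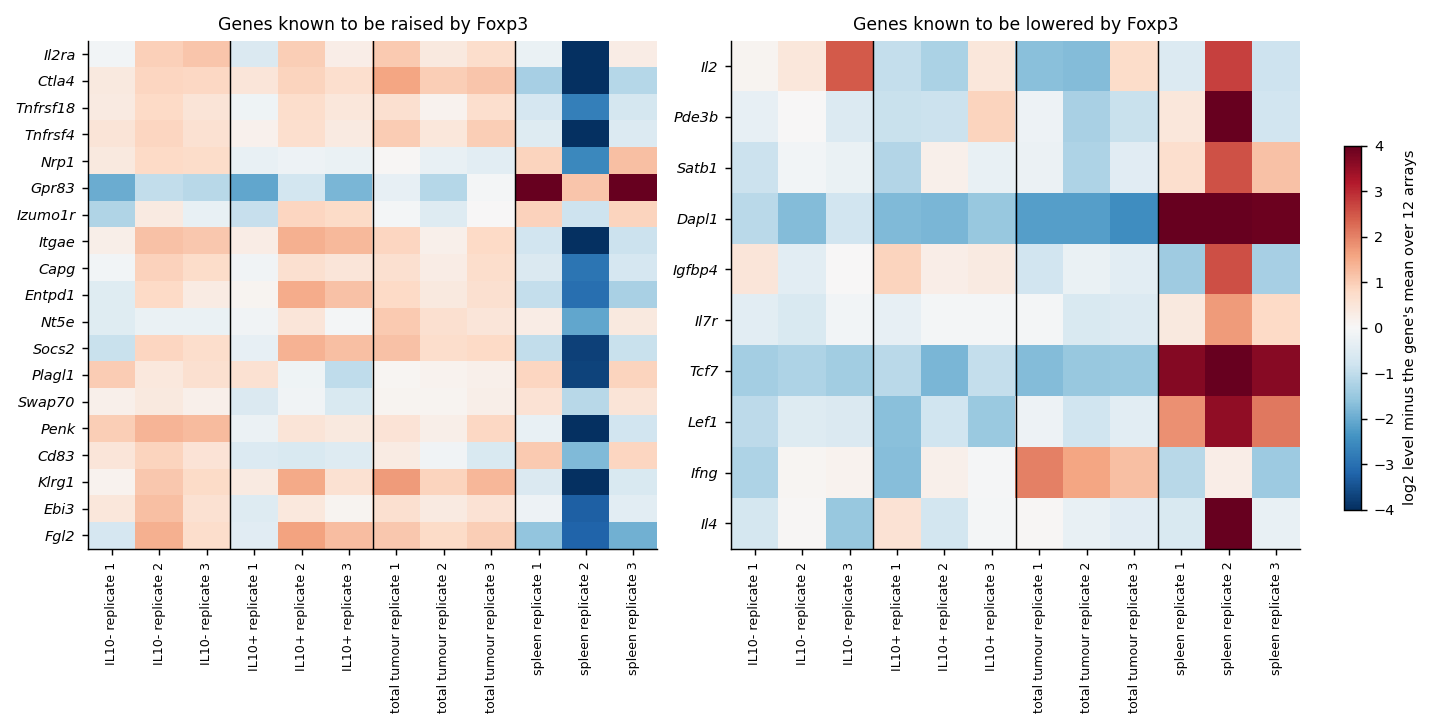
Level of each gene minus its mean over the 12 arrays (log2 colour scale, cut at -4 and 4), for genes known to be raised (left) or lowered (right) by Foxp3 in Treg; columns are arrays, with lines between the groups. The column of spleen replicate 2 is blue for nearly all of the raised genes, where it was the lowest of 12 arrays for 17 of 19, and red for most of the lowered genes, where it was the highest for 9 of 10.

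Foxp3 transcript was measured on all 6 VERT-X arrays and on none of the 6 FoxP3-EGFP arrays. The single Foxp3 probe matches chrX:6751991-6752050 of mm8, the build of the array files, on the plus strand. Its level was 3.03, 4.5 and 4.65 in IL10- replicates 1 to 3 and 2.64, 4.47 and 4.11 in IL10+ replicates 1 to 3. In total tumour Treg it was -6.38, -6.53 and -6.17, and in spleen Treg -6.09, -5.77 and -6.33. The VERT-X arrays all lay above the FoxP3-EGFP arrays, and the gap between them was wider than the spread inside either set. In processed signal the same spots read from 1600 to 6390 on VERT-X arrays and from 4.61 to 5.6 on FoxP3-EGFP arrays, where the lowest signal counted as well above background was between 16.7 and 22.9.

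**Figure D2:**
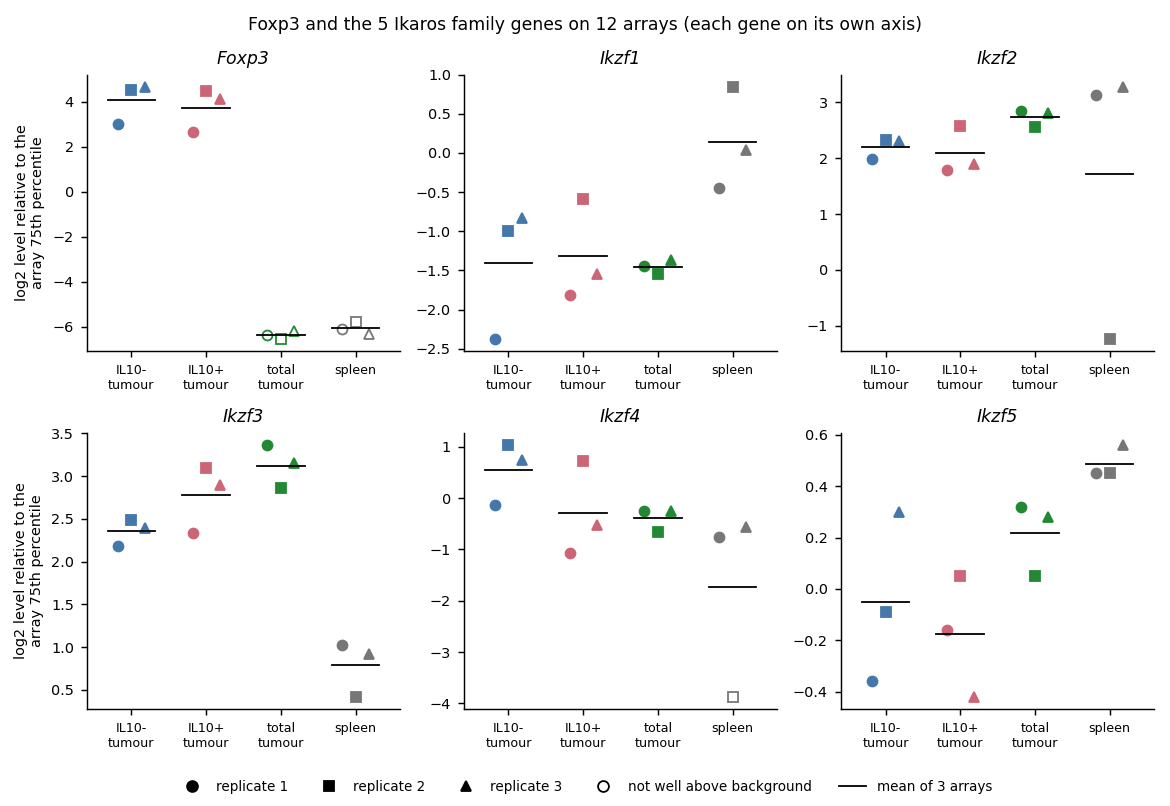
Level of the probe used for each gene on each array (log2, with the array's 75th percentile at 0), by group; symbols give the replicate, open symbols are spots not well above background, and lines are means of 3 arrays. Foxp3 lies between 2.64 and 4.65 in the VERT-X groups and between -6.53 and -5.77 in the FoxP3-EGFP groups, and spleen replicate 2 lies apart from the other spleen arrays for Ikzf2 and Ikzf4.

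Because a spot below background gives only a limit, the Foxp3 differences are lower bounds, taken against the lowest signal well above background on each array. Here and wherever a bound is given, the adjusted p is that of the fitted difference. That fit uses spots below background as read, so the adjusted p does not test the bound. Foxp3 entered the fit only through the VERT-X arrays, where it was high. Foxp3 was at least 307-fold higher in IL10+ than in total tumour Treg (limma adjusted p = 1.94e-05) and at least 383-fold higher in IL10- than in total tumour Treg (adjusted p = 1.43e-05). Against spleen Treg it was at least 222-fold higher in IL10+ (adjusted p = 1.02e-06) and at least 277-fold higher in IL10- tumour Treg (adjusted p = 9.75e-07). Without spleen replicate 2 these bounds were 247-fold and 308-fold (adjusted p = 7.1e-06 and 7.03e-06). In the comparisons with total tumour Treg, 31 and 23 of 15559 features were called for IL10+ and IL10-, Foxp3 among them. With normexp in place of the scanner's background correction the fitted IL10+ difference from total tumour Treg, which is no bound, was 3.98 (adjusted p = 0.143) and the IL10- difference 5.46 (adjusted p = 0.0128), and with slide as a block the values were 9.1 (adjusted p = 0.0187) and 8.68 (adjusted p = 0.103), so each setting ended 1 of the calls. On the slide that held both kinds of tumour sample, IL10+ replicate 1 stood at 2.64 and the mean of total tumour replicates 1 and 2 at -6.46.

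The missing Foxp3 signal did not go with an absence of other Treg transcripts in total tumour Treg. There, Ctla4 stood at 6.02, 5.42 and 5.54, and Il2ra at 2.03, 1.37 and 1.67, within or above the ranges of the VERT-X tumour groups, which were 4.84 to 5.33 and 0.4 to 2.08. For 19 genes known to be raised by Foxp3, the summed level ranged over 9.64 to 10.13 on total tumour arrays, 9.59 to 10.17 on IL10- arrays and 9.25 to 10.04 on IL10+ arrays, so these ranges overlapped. The neighbouring genes on the X chromosome, looked up after the Foxp3 values were seen, were not called: the difference of IL10- from total tumour Treg was -0.65 ± 0.26 (SE) for Ccdc22 (adjusted p = 0.269) and -0.19 ± 0.33 for Ppp1r3f (adjusted p = 0.84). Ccdc22 nonetheless did not overlap between strains, at 0.17 to 1.11 on VERT-X and 1.22 to 2.31 on FoxP3-EGFP arrays. Of all features, 23% did not overlap between IL10+ and total tumour Treg and 27.6% between IL10- and total tumour Treg. The share between all arrays of the strains was not counted. Whether the reporter allele affects what the Foxp3 probe reads was not tested.

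Between IL10+ and IL10- tumour Treg, the only pair of groups from 1 strain and 1 tissue, no member was called. Foxp3 differed by -0.32 ± 0.51 (SE; 95% interval -1.46 to 0.81; adjusted p = 1), IL10+ minus IL10-, with 3 arrays on each side. Among Ikaros family genes the differences were 0.08 ± 0.47 for Ikzf1, -0.11 ± 0.96 for Ikzf2, 0.42 ± 0.24 for Ikzf3, -0.83 ± 0.8 for Ikzf4 and -0.13 ± 0.19 for Ikzf5, each with an adjusted p of 1 by limma. The widest 95% intervals were those of Ikzf2, from -2.25 to 2.02, and Ikzf4, from -2.62 to 0.95. The spread is shared by all groups, and without spleen replicate 2 these intervals were -0.61 to 0.38 and -1.85 to 0.19. The groups overlapped for all 6 members. Over all features 8 were called (0.0514%) and 719 had an unadjusted p under 0.05; with every probe as its own feature the share called was 0.03%. On slide 1, which held IL10+ replicate 2 and all 3 IL10- arrays, the IL10+ array was above the mean of the IL10- arrays for all 6 members. The differences ran from 0.1 for Ikzf5 to 0.81 for Ikzf1. For Foxp3 (4.47 against 4.5 and 4.65) and Ikzf4 (0.73 against 1.03 and 0.75) it lay below IL10- replicates 2 and 3. For Ikzf5 it lay below IL10- replicate 3 (0.05 against 0.3).

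Against spleen Treg the members called were 2 of 6 in total tumour Treg, 4 of 6 in IL10+ and 5 of 6 in IL10- tumour Treg. The IL10+ and IL10- counts in this paragraph include Foxp3, which entered the fit only through the VERT-X arrays. Its calls therefore lend no support when the counts are set beside the shares of all features. The shares of all features called in these comparisons were 42.3%, 50.8% and 49%, and the groups did not overlap for 65.7%, 57.6% and 61.2% of all features. Scaling to the median of the array in place of the 75th percentile moved the median difference of all features to -0.53 for IL10+ and -0.45 for IL10- against spleen, and the share of calls that were higher from 47.1% to 30.8% and from 49.7% to 32%. With spleen replicate 2 left out the counts were 1, 4 and 3 of 6, beside 34.9%, 44.6% and 42.7% of all features. In the comparisons of IL10+ and IL10- with total tumour Treg, 1 member each was called, Foxp3, which had entered through the same VERT-X arrays. Of all features, 0.199% and 0.148% were called there. Those comparisons share their groups, so their values are given side by side and not as independent evidence.

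**Figure D3:**
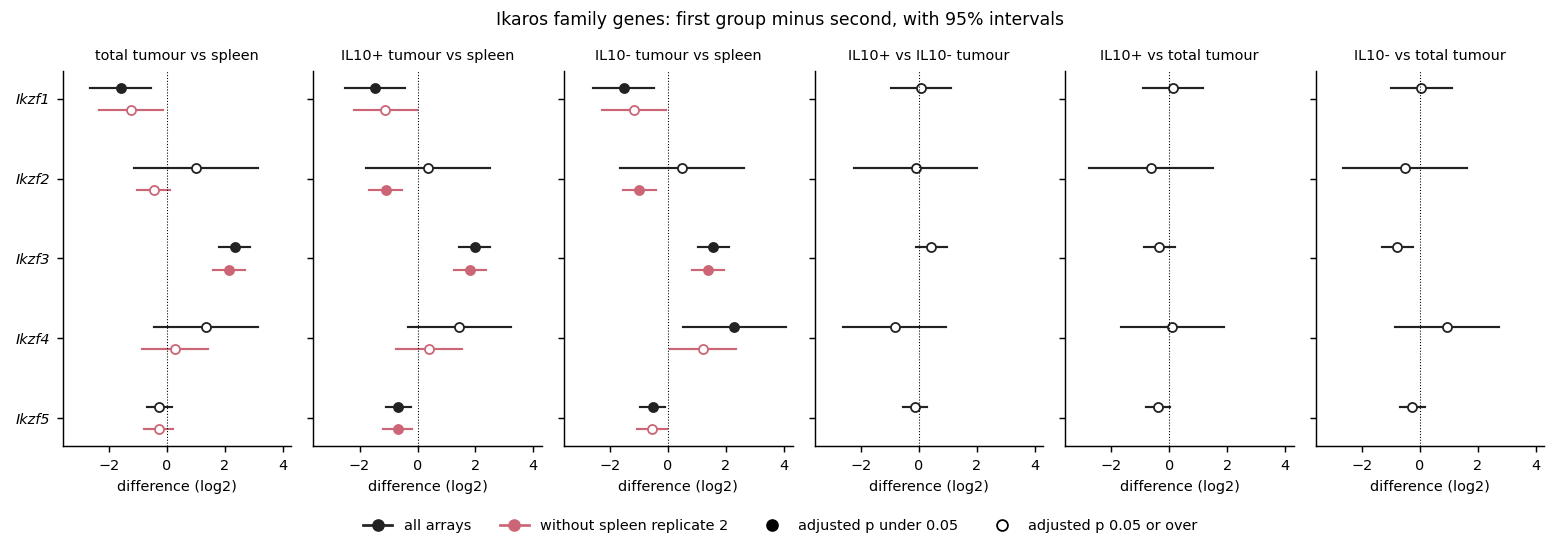
Difference in level (log2, first group minus second) of the 5 Ikaros family genes in 6 comparisons, with 95% intervals; black is the fit of all arrays, red the fit without spleen replicate 2, and filled points have an adjusted p under 0.05. Ikzf3 is the gene whose points are filled on the positive side in all 3 comparisons with spleen under both fits, and Ikzf2 changes side when spleen replicate 2 is left out.

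Ikzf3, which encodes Aiolos, gave the largest Ikaros family difference from spleen on the probes used, in total tumour Treg. It was called higher on 1 of its 4 probes, and another probe was called lower in IL10+ and IL10- tumour Treg. The brightest probe, at chr11:98300382-98300441 (mm8, minus strand), stood at 3.36, 2.86 and 3.15 in total tumour Treg, 2.34, 3.1 and 2.89 in IL10+, 2.18, 2.49 and 2.39 in IL10- tumour Treg, and 1.03, 0.42 and 0.92 in spleen Treg. All 9 tumour arrays lay above all 3 spleen arrays. In the comparisons of total tumour, IL10+ and IL10- with spleen, 65.7%, 57.6% and 61.2% of all features did not overlap. The share for the 9 tumour arrays together was not counted. The difference from spleen was 2.34 ± 0.24 for total tumour (adjusted p = 6.21e-05), 1.99 ± 0.24 for IL10+ (adjusted p = 0.000112) and 1.56 ± 0.24 for IL10- tumour Treg (adjusted p = 0.000516). Leaving spleen replicate 2 out gave 2.15, 1.8 and 1.38 (adjusted p = 0.000256, 0.000469 and 0.00213). On slide 4 alone, total tumour replicate 3 exceeded the mean of the spleen arrays by 2.36. With slide as a block the calls for IL10+ (1.58, adjusted p = 0.06) and IL10- (0.83, adjusted p = 0.348) were lost, and with normexp that for IL10+ was lost (0.63, adjusted p = 0.215).

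The other 3 Ikzf3 probes were not called higher in any comparison with spleen. In total tumour against spleen, the probes at chr11:98283204-98283263 and chr11:98283495-98283554 differed by 0.36 ± 0.45 (adjusted p = 0.566) and 0.47 ± 0.46 (adjusted p = 0.446), in a fit of all probes that called 40.5% of 23334. Against spleen they differed by 0.71 ± 0.45 (adjusted p = 0.212) and 1.1 ± 0.46 (adjusted p = 0.0702) in IL10+ and by 0.39 ± 0.45 and 0.78 ± 0.46 (adjusted p = 0.498 and 0.185) in IL10- tumour Treg, so both were positive throughout, as the brightest probe was. A probe at chr11:98329877-98329935 ran the other way, by -1.26 ± 0.53 in total tumour Treg (adjusted p = 0.0846). In IL10+ tumour Treg it differed from spleen by -2.46 ± 0.53 (adjusted p = 0.00361), with 1 of 3 arrays well above background. In IL10- tumour Treg it was not well above background on any array, and was at least 3.51-fold lower than in spleen. The fitted difference there was -3.04 ± 0.53 (adjusted p = 0.00114, and 0.0015 without spleen replicate 2). With the mean of all 4 probes, which do not share a direction, the differences from spleen were 0.48 (adjusted p = 0.209), 0.33 (adjusted p = 0.352) and -0.08 (adjusted p = 0.836) for total tumour, IL10+ and IL10- tumour Treg. Which transcript each probe reads was not tested. Within the tumour, IL10- lay below total tumour Treg on the brightest probe on every array, with a difference of -0.78 ± 0.24 that did not pass the threshold (adjusted p = 0.168). Of all features, 27.6% did not overlap between these groups.

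**Figure D4:**
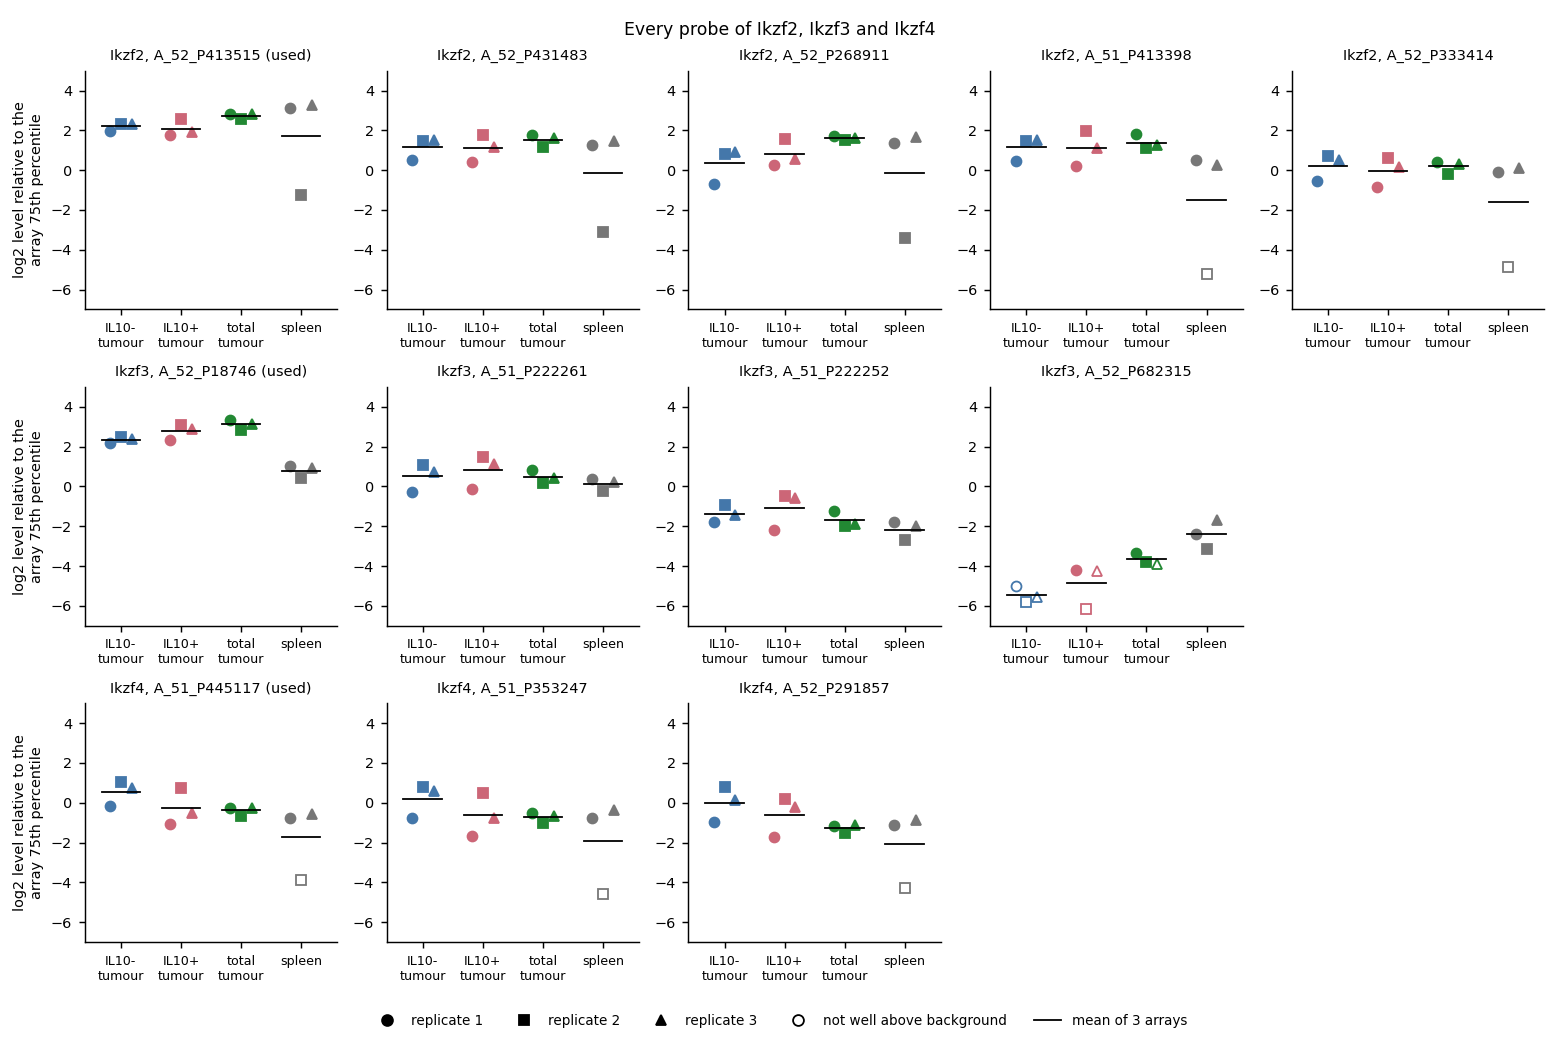
Level of every probe of Ikzf2, Ikzf3 and Ikzf4 on each array (log2, with the array's 75th percentile at 0), by group, on a common axis; symbols give the replicate, open symbols are spots not well above background, and lines are means of 3 arrays. Spleen replicate 2 is the lowest array on all 5 Ikzf2 probes and all 3 Ikzf4 probes, and the Ikzf3 probes order the groups differently.

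Ikzf2, which encodes Helios, was high in every group except for spleen replicate 2. On its brightest probe, at chr1:69464487-69464546 (mm8, minus strand) and named A730095J18Rik in the files, it stood at 3.12, -1.23 and 3.27 in spleen Treg replicates 1 to 3. Total tumour Treg had 2.84, 2.55 and 2.8, IL10- tumour Treg 1.98, 2.33 and 2.3, and IL10+ tumour Treg 1.79, 2.58 and 1.9. Spleen replicates 1 and 3 were thus above all 9 tumour arrays and replicate 2 below all of them. With all arrays, none of the 3 comparisons with spleen passed the threshold, and the differences were 1.01 ± 0.96, 0.37 ± 0.96 and 0.48 ± 0.96 for total tumour, IL10+ and IL10- (adjusted p = 0.433, 0.766 and 0.699). Without spleen replicate 2 each turned negative, to -0.46 ± 0.25 (adjusted p = 0.175), -1.1 ± 0.25 (adjusted p = 0.00617) and -0.99 ± 0.25 (adjusted p = 0.011), and the last 2 passed.

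The other Ikzf2 probes varied in direction. On the other 4 Ikzf2 probes, without spleen replicate 2, the IL10+ difference from spleen ran from -0.73 to 0.71 and the IL10- difference from -1.18 to 0.77, and none was called. The lowest of these values came from the probe at chr1:69615427-69615486, which in IL10- tumour Treg differed by -1.18 ± 0.52 (adjusted p = 0.0957). All 5 probes were low on spleen replicate 2, on 2 of them not well above background. On the brightest probe, the tumour groups ordered as total, IL10- and IL10+ by mean (2.73 ± 0.16, 2.21 ± 0.2 and 2.09 ± 0.42, SD, n = 3). No neighbours in this order differed past the threshold. The IL10- arrays all lay below the total tumour arrays, as 27.6% of all features did not overlap between these groups. The difference was -0.53 ± 0.96 (adjusted p = 0.847), and -0.53 ± 0.22 (adjusted p = 0.281) without spleen replicate 2.

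Ikzf4, which encodes Eos, was also nearly absent from spleen replicate 2. Its brightest probe, at chr10:128036782-128036841 (mm8, minus strand), stood at -0.76, -3.87 and -0.57 in spleen Treg, with the second of these not well above background on any of the 3 Ikzf4 probes. It stood at -0.26, -0.65 and -0.25 in total tumour Treg, at -1.06, 0.73 and -0.52 in IL10+ and at -0.14, 1.03 and 0.75 in IL10- tumour Treg. The IL10- arrays all lay above the spleen and total tumour arrays, while the IL10+ arrays overlapped every other group. Of all features, 61.2% did not overlap between IL10- and spleen and 27.6% between IL10- and total tumour Treg. Ikzf4 was higher in IL10- tumour Treg than in spleen by 2.28 ± 0.8 (adjusted p = 0.0376), and by 1.21 ± 0.5 (adjusted p = 0.0807) without spleen replicate 2. The call was also lost without IL10- replicate 2 (adjusted p = 0.105), IL10- replicate 3 (adjusted p = 0.0895), or total tumour replicate 1, 2 or 3 (adjusted p = 0.0524, 0.0517 and 0.0525), and with slide as a block the difference was 0.7 (adjusted p = 0.853); in all it was lost in 12 of 23 alternatives.

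In the remaining comparisons with spleen, Ikzf4 differed by 1.35 ± 0.8 in total tumour (adjusted p = 0.205) and by 1.45 ± 0.8 in IL10+ tumour Treg (adjusted p = 0.155). The same differences without spleen replicate 2 were 0.28 (adjusted p = 0.708) and 0.38 (adjusted p = 0.563). Its other probes gave 2.12 ± 0.99 (adjusted p = 0.103) and 2.07 ± 0.86 (adjusted p = 0.0699) for IL10- tumour Treg against spleen, in the same direction and without a call.

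Ikzf1, which encodes Ikaros, was lower in each tumour group than in spleen, with no overlap. Its probe, whose match in mm8 spans chr11:11658319-11661278 on the plus strand, stood at -0.45, 0.84 and 0.04 in spleen Treg and at -1.44, -1.54 and -1.37 in total tumour Treg. IL10+ tumour Treg had -1.81, -0.59 and -1.55, and IL10- tumour Treg -2.37, -1 and -0.83. Total tumour arrays were close to each other, whereas replicate 1 was the lowest in both VERT-X groups. The differences from spleen were -1.6 ± 0.47 for total tumour (adjusted p = 0.0204), -1.46 ± 0.47 for IL10+ (adjusted p = 0.0249) and -1.54 ± 0.47 for IL10- tumour Treg (adjusted p = 0.0204). Groups that do not overlap made up 65.7%, 57.6% and 61.2% of all features in these comparisons.

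These 3 Ikzf1 calls did not outlast the loss of spleen replicate 2, the highest of the spleen arrays: the differences became -1.25, -1.11 and -1.19 (adjusted p = 0.0755, 0.0927 and 0.0763). Leaving out replicate 1 or 2 of total tumour Treg ended the call for that group too (adjusted p = 0.0534 and 0.0593). That of IL10+ was lost without IL10+ replicate 1 (adjusted p = 0.0784) or 3 (adjusted p = 0.0699) or spleen replicate 3 (adjusted p = 0.0509), and that of IL10- without IL10- replicate 1 (adjusted p = 0.0651). With normexp the differences were -0.94, -0.57 and -1 (adjusted p = 0.264, 0.334 and 0.206), and with slide as a block -1.52, -1.84 and -2.65 (adjusted p = 0.155, 0.239 and 0.189). The sign stayed negative in all of these. Among the tumour groups Ikzf1 differed by at most 0.14 ± 0.47.

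B cells express Ikaros and Aiolos, and their markers moved with the comparisons to spleen. All 9 B cell markers were well above background on every spleen array, with a summed log2 level of 5.57 to 6.5, against 1 to 5 of 9 on tumour arrays, with 0.62 to 2.09. Cd79a, Blk, Cr2, Ebf1, Fcer2a and Pax5 were not well above background on any total tumour array. Their part in the Ikzf1 and Ikzf3 differences was not tested. Fibroblast markers rose in total tumour Treg in 8 of 8 cases and macrophage and monocyte markers in 11 of 12 (7 and 10 without spleen replicate 2), and their part was not tested either. The summed level of fibroblast markers was 6.78 to 7.29 in total tumour and -1.61 to 1.67 in spleen Treg, that of macrophage markers 8.5 to 9.42 and 5.43 to 6.71. Erythroid cell and platelet markers fell in 4 of 6 cases (median -6.76), with a summed level of 3.02 to 4.22 in total tumour and 9.4 to 10.68 in spleen Treg. Plasma cell markers fell in 3 of 6 cases and rose in 1, with 4.01 to 4.14 and 5.22 to 7.14.

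Ikzf5, which encodes Pegasus, differed little. Its probe at chr7:131180404-131180463 (mm8, minus strand) stood at 0.45, 0.45 and 0.56 in spleen Treg, 0.32, 0.05 and 0.28 in total tumour, -0.16, 0.05 and -0.42 in IL10+ and -0.36, -0.09 and 0.3 in IL10- tumour Treg. Every spleen array was above every tumour array. Of all features, 65.7%, 57.6% and 61.2% did not overlap between spleen and total tumour, IL10+ and IL10- tumour Treg. The share for all tumour arrays together was not counted. Its difference from spleen was -0.66 ± 0.19 in IL10+ tumour Treg (adjusted p = 0.0158) and -0.53 ± 0.19 in IL10- tumour Treg (adjusted p = 0.0411), both lower, while that of total tumour Treg was -0.27 ± 0.19 (adjusted p = 0.289). Without spleen replicate 2 the values were -0.68 (adjusted p = 0.0338), -0.55 (adjusted p = 0.0733) and -0.29 (adjusted p = 0.349).

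The small Ikzf5 differences stood near the threshold. The IL10+ call was lost without IL10+ replicate 3 (adjusted p = 0.0564) or spleen replicate 3 (adjusted p = 0.0508). For IL10-, leaving out IL10- replicate 1 (adjusted p = 0.134) or 2 (adjusted p = 0.0956), any total tumour replicate (adjusted p = 0.0556, 0.0509 and 0.0576 for 1 to 3), or spleen replicate 1 (adjusted p = 0.0813) or 3 (adjusted p = 0.109) also ended it. Slide as a block gave -0.55 (adjusted p = 0.377) and -0.65 (adjusted p = 0.404) for IL10+ and IL10-, and normexp gave -0.38 (adjusted p = 0.187) and -0.44 (adjusted p = 0.235). Each of these differences stayed below 0. In all, the IL10- call was lost in 17 of 23 alternatives and the IL10+ call in 5.

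Genes that work with or downstream of the members were taken from lists of textbook knowledge, and between IL10+ and IL10- tumour Treg none of their genes was called. The smallest unadjusted p-values there were those of Smad3 and Stat5a, which carry TGF-beta and IL-2 signals to the Foxp3 locus. Smad3 differed by -1.11 ± 0.25 (adjusted p = 0.367) and Stat5a by -0.85 ± 0.24 (adjusted p = 0.707), IL10+ minus IL10-. Rora and Gata3, lineage factors that bind Foxp3, differed by -0.75 ± 0.26 and -0.96 ± 0.35 (adjusted p = 0.956 and 0.98). In the list of Foxp3 regulators 3 of 24 genes had a positive difference and the median was -0.3, beside -0.04 over all features. Positive differences numbered 3 of 18 among Foxp3 partners (median -0.07) and 2 of 17 among co-repressor subunits that Ikaros proteins recruit (median -0.1). Both medians were near that of all features. The share of positive differences over all features was not counted, so these counts have no such figure beside them. The lists also share genes, such as Runx1 and Gata3 in regulators and partners. Among genes lowered by Foxp3, 5 of 10 were positive (median -0.01). Macrophage and monocyte markers had a positive difference in 12 of 12 cases (median 0.42, summed level 8.99 to 9.75 in IL10+ and 8.68 to 9.24 in IL10-). CD8 T and NK cell markers had one in 6 of 8 (median 0.57, summed level 6.34 to 7.21 and 5.65 to 6.5). None of these markers was called, and their part in the values of these lists was not tested.

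In total tumour against spleen Treg, 14 of 24 measured regulators of Foxp3 transcription were called, 5 higher and 9 lower, with a median of -0.39 beside -0.01 over all features. Of all features, 22% were called higher and 20.3% lower in this comparison, the background for each list that follows. Bach2, a repressor that keeps T cells resting, was lower, with a difference of -5.54 ± 0.5 (adjusted p = 3.07e-05), and Tet3, a DNA demethylase, differed by -1.89 ± 0.19 (adjusted p = 6.15e-05). Uhrf1, which maintains DNA methylation, was higher by 2.02 ± 0.19 (adjusted p = 4.02e-05). After removal of spleen replicate 2 these 3 differences were -5.4, -1.81 and 1.8, all called, and 4 regulators were higher and 8 lower. For Tet3 the mean of its probes gave 0.12.

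Of 18 measured Foxp3 partner factors, 4 were higher in total tumour than in spleen Treg and 3 lower (median -0.05), beside 22% and 20.3% of all features. Nfatc2, a calcium-driven factor that binds DNA with Foxp3, was higher by 3.89 ± 0.61 (adjusted p = 0.000784) and Rora by 2.18 ± 0.26 (adjusted p = 0.000169). Foxp1, a forkhead relative of Foxp3 found in resting T cells, was lower, with a difference of -2.23 ± 0.24 (adjusted p = 8.73e-05). Foxp4, the other relative measured, differed by -0.73 ± 0.71 (adjusted p = 0.443). On the 11 other arrays, without spleen replicate 2, 3 partners were higher and 1 lower, and Nfatc2 (4.08), Rora (1.88) and Foxp1 (-2.03) were still called.

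Of 17 co-repressor subunits that Ikaros proteins recruit, 4 were higher and 3 lower in total tumour than in spleen Treg, with a median of 0.02; these shares are near the 22% and 20.3% of all features. Ctbp2, a co-repressor, was higher by 4.29 ± 0.42 (adjusted p = 4.58e-05), with 2 of the 3 spleen arrays well above background. Chd3, a NuRD remodeller, differed by -1.53 ± 0.25 (adjusted p = 0.000988), and Sin3b, a Sin3 scaffold, by 0.72 ± 0.14 (adjusted p = 0.00259), which turned to -0.72 with the mean of its probes. Without spleen replicate 2, 3 were higher and 1 lower, with differences of 4.61, -1.51 and 0.68 for these 3 genes, all called. None of the 5 measured subunits of the cereblon ligase, which destroys Ikaros and Aiolos in human cells given thalidomide analogues, was called; Ddb1, Crbn and Cul4a differed by 0.5 ± 0.23, -0.41 ± 0.22 and 0.37 ± 0.28 (adjusted p = 0.115, 0.153 and 0.307).

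Among 19 genes known to be raised by Foxp3, 9 rose and 1 fell in total tumour against spleen Treg, with a median of 1.95, beside 22% and 20.3% of all features; the Foxp3 probe was not well above background in either group. Leaving out spleen replicate 2, 10 rose and 3 fell and the median was 1.08. Ctla4 rose by 3.82 ± 0.89 (adjusted p = 0.00669; 2.46 without that library) and Fgl2, a secreted inhibitor, by 3.17 ± 0.65 (adjusted p = 0.00342; 2.68 without). Gpr83, a G-protein-coupled receptor of Treg, went the other way, by -3.96 ± 0.85 (adjusted p = 0.00431; -5.12 without). Of 10 genes known to be lowered by Foxp3, 5 fell and 1 rose (median -1.74); without the library 5 fell and 2 rose (median -0.83). Tcf7 and Lef1, factors of naive T cells, differed by -5.78 ± 0.4 (adjusted p = 6.62e-06) and -2.96 ± 0.42 (adjusted p = 0.000461), and Dapl1 by -7.48 ± 0.82 (adjusted p = 9.62e-05); without the library these were -5.24, -2.43 and -6.23, all called.

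Of 10 known Ikaros family targets in lymphocytes, 2 rose and 3 fell in total tumour against spleen Treg, with a median of -0.69, beside 22% and 20.3% of all features. Dntt, which encodes terminal transferase, was at least 21.8-fold lower in total tumour Treg, where it was not well above background (adjusted p = 0.00386). Il7r, the IL-7 receptor, differed by -1.37 ± 0.3 (adjusted p = 0.00501) and Ifng, the type II interferon gene, by 2.37 ± 0.61 (adjusted p = 0.0115). Without spleen replicate 2, 2 rose and 2 fell and the median was -0.17, with -1.01 for Il7r, 2.89 for Ifng and a bound of at least 12.8-fold lower for Dntt (adjusted p = 0.0157). Myc and Il2 were the members of this list with the smallest unadjusted p between IL10+ and IL10- tumour Treg, and their adjusted p was 1.

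The genes whose levels followed each member most closely were found by Pearson's r over the 12 arrays, given as a description, since all points share arrays, scaling and the 4 groups. Foxp3 was most like Carm1 (r = 0.959), Tmem39b (0.954) and Traf7 (0.946). Carm1, an arginine methyltransferase, stood at 1.58 to 1.88 on VERT-X arrays and at 0.92 to 1.26 on FoxP3-EGFP arrays, a far smaller step than that of Foxp3. For Ikzf1 the leading genes were Nlk (0.99), Pknox1 (0.966) and Pced1b (0.958), and for Ikzf5 they were Uri1 (0.959), Thoc2 (0.956) and Cnot3 (0.939). Ikzf3 was followed by Isg20 (0.983), Metrnl (0.98) and Ifngr1 (0.979), where r stayed at 0.969 or above without spleen replicate 2.

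The likeness of Ikzf2 and Ikzf4 to other genes leaned on spleen replicate 2. Ikzf2 was most like Alox8 (0.965), Spock2 (0.959) and Gjb2 (0.954), and r was 0.798, 0.802 and 0.825 without that library. Ikzf4 was most like Myo1e (0.966), Rln3 (0.966) and Cldnd1 (0.964), and r was 0.872, 0.868 and 0.864 without it. Between the members, Ikzf2 and Ikzf4 had r = 0.767 over 12 arrays and -0.0722 over the remaining 11, while Ikzf1 and Ikzf5 had 0.738 and 0.745.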

How the data were processed

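Each array is 1 sample. Per the file headers, the authors scanned the arrays with Agilent Feature Extraction 9.5.3.1, which the submitters' processing notes also name, and the deposited spot intensity is background-subtracted within the array with no scaling between arrays. The deposited series value table holds values on a log10 scale; its scaling is not stated, and it served as an alternative. From 43379 spots, 41174 probes were averaged, scaled as log2 to the 75th percentile of each array and kept where well above background on at least 3 arrays; a gene was read from its brightest probe. All 4 groups of 3 arrays were fitted together in R 4.3.3 with limma 3.58.1 (lmFit, eBayes; two-sided) and adjusted by Benjamini-Hochberg; errors are SE of a difference unless called SD. The pipeline was tested on simulated data. Precision is limited by 3 arrays per group; nothing says that the experiments used separate animals in every case, so p-values measure the spread between these samples. Slide was read from the scanner files and tried as a block. Groups without a shared slide were compared in that fit only through arrays of other groups. Symbols were updated through RefSeq. Members, gene lists and markers were chosen with earlier results of these data known. Of each list, the 3 genes with the smallest unadjusted p in total tumour against spleen and the 2 in IL10+ against IL10- were eligible to be named, with the 3 genes most like each member; Il2ra, Ctla4 and Dapl1 on spleen replicate 2, and the markers listed by absence, were picked after their values were seen. Probe coordinates are those of mm8, promoter coordinates those of GRCm38.p6.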

Additional observations from a re-analysis of the deposited data

How the results depend on the processing

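Alternatives were 11 other settings and each of the 12 arrays left out in turn. No member was called between IL10+ and IL10- tumour Treg in any of these. Members called moved with the setting. The IL10+ and IL10- counts against spleen and total tumour include Foxp3 wherever it was called. In total tumour against spleen 1 was called with normexp, with the mean of the probes of a gene and with slide as a block. In IL10+ against spleen 1 was called with normexp or the slide block and 2 with no filter. In IL10- against spleen 3 were called with normexp, median scaling, no filter or the mean of probes, 2 with only the 2 groups compared and 1 with the slide block. In IL10+ against total tumour 0 were called with normexp, and in IL10- against total tumour 0 with the slide block and 2 with array weights. Leaving out 1 array gave 1 to 2 members in total tumour against spleen (1 without total tumour replicate 1 or 2 or spleen replicate 2), 2 to 4 in IL10+ against spleen (2 without IL10+ replicate 3 or spleen replicate 3) and 3 to 5 in IL10- against spleen (3 without IL10- replicate 1 or 2, any total tumour array or spleen replicate 2).

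Some differences changed sign with the setting, and not all of them were near 0. Among those that changed, Tet3 and Sin3b in total tumour against spleen and Ikzf3 in IL10- against spleen were called in the main fit. For Ikzf2 against spleen the values were -0.68 (normexp), -0.1 (median scaling) and -0.66 (array weights) in IL10+, -0.19 (slide block) and -0.56 (array weights) in IL10-, and -0.11 (array weights) in total tumour Treg; leaving out 1 array gave -0.46 to 1.79 for total tumour, -1.1 to 1.15 for IL10+ and -0.99 to 1.26 for IL10-. Ikzf3 in IL10- against spleen was -0.08 with the mean of probes. For IL10+ against IL10-, normexp gave Ikzf3 -0.71, Ikzf5 0.06, Il2 0.54, Cul4a -0.62 and Foxp4 0.02, the slide block gave Foxp3 0.41, Ikzf2 0.37, Ikzf4 0.18, Ikzf5 0.1 and Foxp4 0.68, array weights gave Ikzf1 -0.19 and the mean of probes Ikzf2 0. Leaving out 1 array gave Foxp3 -0.84 to 0.23, Ikzf1 -0.4 to 0.37, Ikzf2 -0.36 to 0.03, Ikzf5 -0.28 to 0.05, Cul4a -0.01 to 0.51, Foxp4 -1.08 to 0.51 and Foxp1 -0.27 to 0.06. Against total tumour, Ikzf1 in IL10+ was -0.26 (median scaling) and -0.32 (slide block), and in IL10- -0.06 (normexp), 0 (quantile), -0.33 (median scaling), -0.01 (series value table) and -1.13 (slide block); Ikzf4 was -0.04 (normexp), -0.29 (median scaling) and -0.61 (slide block) in IL10+ and -0.79 (slide block) in IL10-. Leaving out 1 array gave -0.23 to 0.39 for Ikzf1 and -0.4 to 0.49 for Ikzf4 in IL10+, and -0.23 to 0.54 for Ikzf1 in IL10-. In total tumour against spleen, Foxp4 was 0.05 with normexp, and the mean of probes gave Tet3 0.12, Sin3b -0.72 and Crbn 0.03. The cause of these changes was not tested.

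Whether the replicate numbers pair the samples could not be decided with 3 arrays per group, and the main fit used no pairing. Deviations of same-numbered IL10+ and IL10- arrays correlated at 0.41, 0.429 and -0.24. With replicates 1 and 2 crossed, r was -0.569 and -0.544. Replicate 3 of each group correlated best with replicate 2 of the other (0.254 for IL10+ and 0.298 for IL10-). With the number as a replicate block, 3 members were called in IL10- against spleen, and 6388, 3, 7771, 7505, 2 and 2 features in total tumour against spleen, IL10+ against IL10-, IL10+ and IL10- against spleen, and IL10+ and IL10- against total tumour, beside 6574, 8, 7907, 7621, 31 and 23 without it; with slide as a block the counts were 3382, 0, 2385, 1206, 3 and 0. Spots near background, as for Foxp3 in the FoxP3-EGFP samples and Ikzf4 on spleen replicate 2, give only a limit.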
